A study of Mus musculus with 20 samples.

Results

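Prostaglandin synthesis and receptor genes were followed in the mouse tibia as 10 members of the 54446 genes counted, chosen by symbol for their place in the pathway. They were the phospholipase Pla2g4a, the cyclooxygenases Ptgs1 and Ptgs2, the synthases Ptges and Ptgis, the degrading enzyme Hpgd, and the prostaglandin E2 (PGE2) receptors Ptger1, Ptger2, Ptger3 and Ptger4. Each matched 1 row of the deposited table.

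The data came from bulk RNA-seq of tibiae of male C57BL/6J mice, 3 months old, injected subcutaneously for 5 days with dexamethasone (DEX, a synthetic glucocorticoid, at 1 mg/kg) or with distilled water (vehicle). Axial load of -13 N was put on the left tibia, with the right one as the unloaded control, which gave Vehicle_Ctrl, Vehicle_Load, DEX_Ctrl and DEX_Load, with 5 libraries each. Tibiae were frozen 4 hours after the last loading session and crushed. The labels call the tissue tibia, and the study elsewhere refers to it as cortical bone with periosteum. How marrow and soft tissue were handled before freezing is not given for these samples, and the unloaded limb shared a body with a loaded one. Unloaded DEX replicate 4 was left out of the values and comparisons below, so DEX_Ctrl has n = 4, because the study removed a library named DEX-4 and plotted 4 unloaded DEX values.

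Prostaglandins are short-lived lipid signals made from arachidonic acid. Cytosolic phospholipase A2 (Pla2g4a) frees the fatty acid from membranes, and cyclooxygenase-1 (Ptgs1, mostly constitutive) or cyclooxygenase-2 (Ptgs2, inducible) converts it to prostaglandin H2. Ptges then makes PGE2 and Ptgis makes prostacyclin, while Hpgd (15-hydroxyprostaglandin dehydrogenase) inactivates PGE2. The receptors EP2 (Ptger2) and EP4 (Ptger4) raise cAMP, EP1 (Ptger1) acts through calcium, and EP3 (Ptger3) mostly lowers cAMP. In bone, osteocytes and osteoblasts release PGE2 when strained, and glucocorticoids are known to repress cyclooxygenase-2.

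The stretches upstream of Ptgs2 and Ptger2 are shown because these genes had the largest differences between groups among the members. Both are the 250 bases before the RefSeq transcription start on GRCm38.p6, plus strand, at chr1:150099781-150100030 and chr14:44987861-44988110. Capitals mark a match to the C/EBP motif TTNNGCAA in Ptgs2 and to the glucocorticoid receptor half-site TGTTCT, read on the minus strand, in Ptger2.
Ptgs2: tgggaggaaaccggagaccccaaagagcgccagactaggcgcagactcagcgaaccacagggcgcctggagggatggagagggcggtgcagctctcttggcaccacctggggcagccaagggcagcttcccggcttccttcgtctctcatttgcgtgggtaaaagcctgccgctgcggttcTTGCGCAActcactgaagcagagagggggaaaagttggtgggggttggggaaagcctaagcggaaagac
Ptger2: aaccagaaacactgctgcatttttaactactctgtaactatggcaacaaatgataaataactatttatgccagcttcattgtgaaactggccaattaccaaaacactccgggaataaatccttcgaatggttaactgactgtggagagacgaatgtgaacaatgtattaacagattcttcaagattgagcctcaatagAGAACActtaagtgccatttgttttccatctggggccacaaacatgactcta

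The C/EBP match in Ptgs2 lies at -69 to -62 from the start and reads the same on both strands. Of the 27025 windows of this length in the RefSeq table, 9.55% hold that motif, which was added to the search after the Ptgs2 sequence had been read. The half-site in Ptger2 lies at -52 to -47, and 16.2% of all windows hold TGTTCT on either strand. Among the 8 members with a window, Ptgs1 (-204 to -199) and Ptges (-191 to -186) also held the half-site, while Hpgd held none of the motifs searched. The TATA box TATAAA (13% of windows), the cAMP response half-site TGACG (17.9%), the AP-1 site TGANTCA (6.87%), the E-box CACGTG (6.05%) and the NF-kB consensus (3.75%) were in none of the 8 windows. The upstream stretch of Ptgs2 was 61.6% G and C and that of Ptger2 was 38%. Such matches describe letters only. The search covered only the 250 bases before the RefSeq start, so absence from a window does not mean absence from the promoter.

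Expression levels are CPM (read counts relative to library size) after trimmed-mean (TMM) scaling, and levels of different genes are compared as CPM per kb of exon. Library totals ranged from 4641437 to 13032018 counts. Osteoblast and osteocyte markers identified the tissue as bone, with Col1a1 at 2239 CPM or more in each library used, and markers of marrow and muscle cells were present too. The glucocorticoid target Fkbp5 had a mean of 119.6 to 129.6 CPM in the DEX groups and 71.6 to 76.4 CPM in the vehicle groups, but the 5 glucocorticoid targets did not move together. In loaded tibiae edgeR called 2 of the 5 higher with DEX (Fkbp5 and Zbtb16), and in unloaded tibiae it called 0 higher and 1 lower (Sgk1, 24.4 against 39.4 CPM). Per1 had lower means with DEX (42.2 and 42.4 CPM) than with vehicle (67.5 and 67.2 CPM) without passing, and Tsc22d3 had similar means in all 4 groups (86.6 to 104 CPM). Loaded DEX replicate 4 stood apart, with the lowest total. Reads assigned to olfactory and vomeronasal receptor genes, which bone is not known to use, summed to 1092 to 8885 CPM in DEX_Load, 811 to 3257 in DEX_Ctrl, 232 to 913 in Vehicle_Load and 346 to 1276 in Vehicle_Ctrl. These background reads did not overlap between the loaded groups, so background and DEX cannot be told apart there.

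Per kb of exon, the prostacyclin synthase Ptgis had the highest median level over the 19 libraries of all groups (23.1 CPM per kb), followed by Hpgd (17.8) and Ptgs1 (10.7). Their ranges over libraries overlapped. Pla2g4a (4.09 CPM per kb) came next, and its highest library (5.44) was under the lowest Ptgs1 library (6.91). The medians of Ptger1 (2.48), Ptger4 (2.36), Ptger2 (1.93), Ptges (1.46) and Ptger3 (1.16 CPM per kb) followed, with each overlapping its neighbours in this order. Ptgs2 was the least expressed member (0.247 CPM per kb), and outside Vehicle_Load its highest library (0.493) lay under the lowest Ptger3 library (0.695). The order differed between groups. In DEX_Load the means of Hpgd (11.05 ± 5.51) and Ptgs1 (11.02 ± 3.31 CPM per kb, SD, n = 5 each) were alike, and Ptger2 had the highest mean of the receptors in DEX_Ctrl (2.69) and DEX_Load (2.75 CPM per kb), with ranges that overlapped those of Ptger1 and Ptger4. The messages for prostacyclin synthase and for the PGE2-inactivating enzyme were thus more abundant per length than those for Ptges and Ptgs2, in every library of each group.

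**Figure D1:**
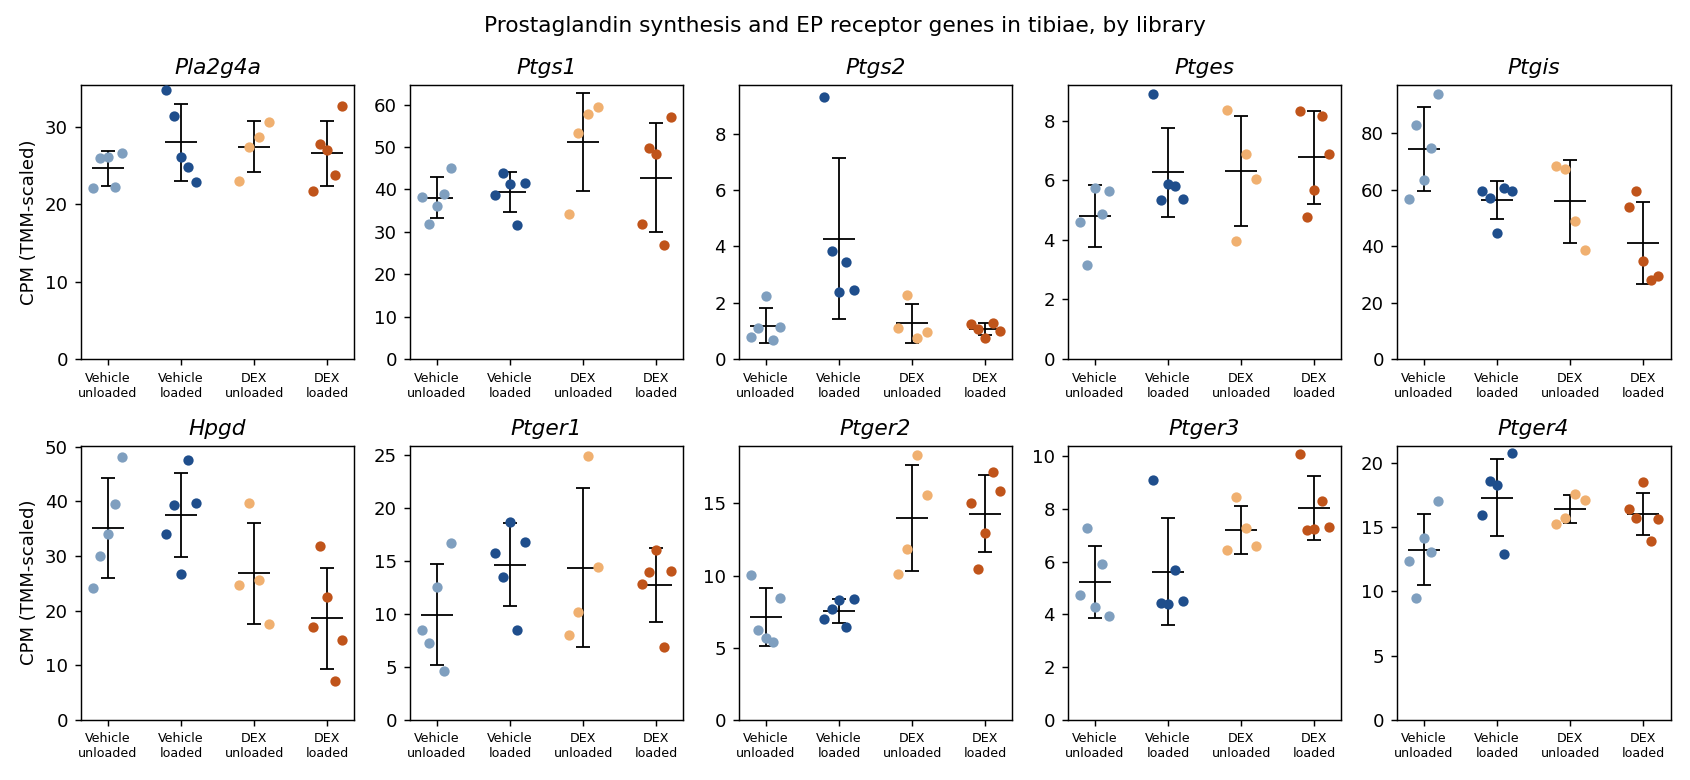
TMM-scaled CPM of the 10 genes (y axes, from 0) in each library of the 4 groups (x axes), with 1 point per library and the mean and SD in black. Ptgs2 was highest in the 5 loaded vehicle libraries (2.38 to 9.29 CPM), and Ptger2 was higher in both DEX groups than in both vehicle groups.

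Ptgs2 (chr1:150100031-150108227, plus strand) was the member that stood out in loaded bone of vehicle-treated mice. Its level was 9.29, 3.85, 2.38, 3.43 and 2.43 CPM in Vehicle_Load replicates 1, 2, 4, 5 and the unnumbered library. In Vehicle_Ctrl it was 0.79, 1.09, 2.24, 0.66 and 1.13 CPM in the same order. All loaded libraries lay above all unloaded ones, with replicate 1 far above the rest and the lowest loaded value (2.38) just above the highest unloaded value (2.24).

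The fitted change of Ptgs2 with loading in vehicle was 3.51-fold, a log2 fold change of 1.81 (SE 0.448). It had an unadjusted p = 0.00155 in edgeR's quasi-likelihood test and an adjusted p = 0.247 over 17982 genes, so it did not pass the threshold of 0.05. With the DESeq2 Wald test the adjusted p was 0.0208. Over the 17 alternatives its adjusted p ran from 0.0208 to 0.564, and without Vehicle_Load replicate 1 the log2 fold change was 1.32 (adjusted p = 0.494). The counts behind these levels were small, at 19 to 100 in Vehicle_Load and 5 to 21 in Vehicle_Ctrl.

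Under DEX, loaded and unloaded bone had Ptgs2 at like levels. The values were 1.24, 1.07, 0.73, 1.29 and 0.99 CPM in DEX_Load replicates 1 to 5, and 1.11, 2.26, 0.74 and 0.94 CPM in DEX_Ctrl replicates 1, 2, 3 and 5. The groups overlapped fully, with a log2 fold change of -0.24 (SE 0.476, edgeR adjusted p = 0.833). No DEX_Load library reached the level of any Vehicle_Load library.

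In loaded tibiae Ptgs2 was 3.69-fold lower with DEX than with vehicle, a log2 fold change of -1.89 (SE 0.439, edgeR adjusted p = 0.0136). Leaving out each library in turn kept this call, at a log2 fold change of -2.08 to -1.43 and an adjusted p of 0.01 to 0.0377. With background reads as a covariate the log2 fold change was -1.58 and the adjusted p = 0.402, in a fit that called 28 of 19780 genes. In unloaded tibiae Ptgs2 did not pass the filter on low counts and was not tested there. The fit without a filter gave it a log2 fold change of 0.083 (SE 0.531, edgeR adjusted p = 0.962).

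Whether loading changed Ptgs2 differently under DEX was tested as the interaction of treatment and loading. The loading response was lower under DEX by 2.07 on the log2 scale (SE 0.642), with an unadjusted p = 0.004 and an edgeR adjusted p = 0.359 over 23653 genes. DESeq2 gave an adjusted p = 0.170 (0.170 to 0.730 over the 27 alternatives). A difference between the 2 loading responses of Ptgs2 was therefore not shown over all genes.

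Ptgs1 supplied most of the cyclooxygenase message. Per kb of exon, the share of Ptgs2 in the summed Ptgs1 and Ptgs2 level was 8.34% ± 5.06 (SD, n = 5) in Vehicle_Load and 2.61% ± 1.43 (SD, n = 5) in Vehicle_Ctrl. The Ptgs2 share was 2.14% ± 1.13 (SD, n = 4) in DEX_Ctrl and 2.33% ± 1.17 (SD, n = 5) in DEX_Load. The highest Ptgs2 share in a single library was 16.9%, in Vehicle_Load.

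Markers of other cell types differed between the same groups as Ptgs2, cartilage among them. The 8 chondrocyte genes (among them Col2a1, Acan and Sox9) summed to 759 to 2504 CPM in Vehicle_Load, 415 to 1228 in Vehicle_Ctrl, 221 to 635 in DEX_Ctrl and 121 to 471 in DEX_Load. No gene of the list was at 0 in a group. In loaded tibiae 7 of the 8 were lower with DEX (median log2 fold change -3.26), while edgeR called 0 of the 7 tested for loading in vehicle (median 2.05), with 5 at an unadjusted p under 0.05 and 4 called higher by DESeq2. The 7 osteoclast genes summed to 1156 to 1859 CPM in Vehicle_Load, above the 641 to 965 CPM in Vehicle_Ctrl, and to 903 to 1492 in DEX_Ctrl and 676.5 to 1436 in DEX_Load. For loading in vehicle edgeR called 0 of the 7 (median log2 fold change 0.62), with 6 at an unadjusted p under 0.05 and 2 called higher by DESeq2. An unadjusted p under 0.05 was also found there for 3 of 7 macrophage genes (median 0.30), 3 of 7 periosteum and fibroblast genes (0.50, with 1 called higher by DESeq2), 4 of 9 osteoblast genes (-0.24, with 2 called lower by DESeq2), 2 of 5 osteocyte genes (-0.24) and 1 of 6 skeletal muscle genes. The muscle genes all had negative log2 fold changes (median -1.02; summed 3359 to 16580 CPM in Vehicle_Load and 6862 to 28790 in Vehicle_Ctrl). In the interaction an unadjusted p under 0.05 was found for 7 of 8 chondrocyte (median -2.55), 5 of 7 osteoclast (-0.77), 4 of 7 macrophage (-0.54) and 6 of 6 muscle genes (2.24), with 0 called by edgeR and 1 chondrocyte gene by DESeq2. Vehicle_Load replicate 1, the library highest in Ptgs2, also stood apart in marker sums. It was highest of its group for periosteum and fibroblast (4322 CPM), endothelial (787.3) and megakaryocyte genes (701.9). It was lowest for neutrophil (3485) and B cell genes (84.36), and within the range of the others for chondrocyte (2204), macrophage (825.2) and osteoblast genes (96880). The part of these lists in the Ptgs2 values was not tested.

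Ptgs1, the constitutive cyclooxygenase, did not share this pattern. It had 38.0 ± 4.80 CPM in Vehicle_Ctrl and 39.4 ± 4.77 CPM in Vehicle_Load (SD, n = 5 each), with a log2 fold change of 0.03 with loading (SE 0.109, edgeR adjusted p = 0.928). In unloaded tibiae its level with DEX was 34.1, 53.4, 57.7 and 59.5 CPM in replicates 1, 2, 3 and 5, against 31.9 to 45.1 CPM with vehicle. The log2 fold change of 0.49 (SE 0.163) missed the threshold with an edgeR adjusted p of 0.0887. DESeq2 (adjusted p = 0.0453) and the fit without DEX_Ctrl replicate 1 (adjusted p = 0.0192) called it. In loaded tibiae the log2 fold change of Ptgs1 was 0.22 (SE 0.169, edgeR adjusted p = 0.353).

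Pla2g4a, which supplies arachidonic acid, had the narrowest range over the 19 libraries relative to its level. Its levels were 22.1 to 26.7 CPM in Vehicle_Ctrl, 22.9 to 34.8 in Vehicle_Load, 23.0 to 30.7 in DEX_Ctrl and 21.7 to 32.6 in DEX_Load. No comparison called it, with log2 fold changes of -0.05 to 0.22 in the 4 comparisons of groups. The PGE2 synthase Ptges was at 3.15 to 5.76 CPM in Vehicle_Ctrl, 5.33 to 8.92 in Vehicle_Load, 3.95 to 8.36 in DEX_Ctrl and 4.77 to 8.34 in DEX_Load. It was called in none either, with log2 fold changes of 0.09 to 0.46.

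Ptgis had 74.2 ± 14.9 CPM in Vehicle_Ctrl and 56.3 ± 6.67 CPM in Vehicle_Load (SD, n = 5 each). Its log2 fold change with loading was -0.42 (SE 0.139, unadjusted p = 0.0104), with an edgeR adjusted p of 0.397. In the DEX groups it was -0.44 (SE 0.253, edgeR adjusted p = 0.733), from 55.8 ± 14.6 CPM (SD, n = 4) to 41.0 ± 14.5 CPM (SD, n = 5). The 2 loading differences of Ptgis were alike in size, with an interaction of -0.03 (SE 0.302), and neither passed.

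Hpgd, the enzyme that inactivates PGE2, was the other member lower with DEX in loaded bone. It had 17.0, 31.9, 22.5, 7.03 and 14.6 CPM in DEX_Load replicates 1 to 5. In Vehicle_Load it had 34.0, 39.4, 26.7, 47.5 and 39.6 CPM in replicates 1, 2, 4, 5 and the unnumbered library. Only DEX_Load replicate 2 (31.9 CPM) reached into the vehicle range, and replicate 4, the library with the lowest total, was lowest.

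The difference was 1.88-fold, a log2 fold change of -0.91 (SE 0.279, edgeR adjusted p = 0.0364). This call depended on single libraries. Leaving out DEX_Load replicate 1 or 5, or Vehicle_Load replicate 1, 2, 5 or the unnumbered library, gave an adjusted p of 0.0514 to 0.0689. With background reads as a covariate the log2 fold change was -0.22 (adjusted p = 0.869). In unloaded tibiae Hpgd had 26.8 ± 9.27 CPM with DEX (SD, n = 4) and 35.1 ± 9.20 CPM with vehicle (SD, n = 5), with a log2 fold change of -0.33 (SE 0.229, edgeR adjusted p = 0.396). The interaction was -0.60 (SE 0.402, edgeR adjusted p = 0.470), so a different DEX effect with and without load was not shown.

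Markers of several cell types also differed with DEX, most of them lower. In loaded tibiae 7 of 9 osteoblast genes were lower (median log2 fold change -1.77; summed 4584 to 24060 CPM against 64760 to 97050 with vehicle). The same was called for 6 of 7 periosteum and fibroblast genes (summed 430 to 1083 against 1909 to 4322 CPM), 4 of 5 B cell genes (median log2 fold change -1.75; summed 17.4 to 67.5 against 84.4 to 181.8 CPM), 4 of 6 osteocyte genes (with 1 called higher), 2 of 7 osteoclast genes (median -0.53), 2 of 7 macrophage genes and 1 of 6 endothelial genes. The 6 skeletal muscle genes had positive log2 fold changes (median 0.50), with 0 called by edgeR or DESeq2 and 0 at an unadjusted p under 0.05, though in unloaded tibiae all 6 had negative ones at an unadjusted p under 0.05 (median -1.76, 0 called by edgeR and 1 by DESeq2). In loaded tibiae 0 of 8 megakaryocyte and platelet genes were called by edgeR or DESeq2, or had an unadjusted p under 0.05. In bulk bone, fewer cells of a type and less RNA per cell cannot be told apart. The part of cell make-up in the Hpgd difference was not tested.

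Ptger2, the EP2 receptor, had the lowest adjusted p of the 10 genes and was higher with DEX whether or not the limb was loaded. In loaded tibiae it had 15.1, 10.4, 12.9, 17.2 and 15.9 CPM in DEX_Load replicates 1 to 5, and 6.97, 7.70, 8.27, 6.47 and 8.34 CPM in Vehicle_Load replicates 1, 2, 4, 5 and the unnumbered library. The groups did not overlap. The lowest DEX_Load library (10.4) was above the highest Vehicle_Load library (8.34).

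In unloaded tibiae Ptger2 had 10.1, 11.9, 18.3 and 15.6 CPM in DEX_Ctrl replicates 1, 2, 3 and 5. In Vehicle_Ctrl it had 10.0, 6.20, 5.65, 5.40 and 8.47 CPM. The groups were again apart, though DEX_Ctrl replicate 1 (10.14) and Vehicle_Ctrl replicate 1 (10.01) nearly touched.

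The rise was 2.05-fold in both settings. Its log2 fold change was 1.04 (SE 0.179, edgeR adjusted p = 0.00358) in loaded and 1.03 (SE 0.233, edgeR adjusted p = 0.0248) in unloaded tibiae. Loading itself left Ptger2 within the spread of its libraries, with log2 fold changes of 0.06 (SE 0.194) in vehicle and 0.03 (SE 0.215) in DEX. The interaction was -0.04 (SE 0.286, edgeR adjusted p = 0.943).

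In loaded tibiae the call held without each library in turn (adjusted p of 0.00168 to 0.0127) and was lost with background reads as a covariate (log2 fold change 0.61, adjusted p = 0.386). In unloaded tibiae, where the background reads of the groups overlapped, the covariate kept it. There it was lost without DEX_Ctrl replicate 3 (adjusted p = 0.110) or 5 (0.0556), or Vehicle_Ctrl replicate 4 (0.0521) or 5 (0.0612). It was also lost with the replicate number as a block (adjusted p = 0.162) and in the libraries of that fit without the block (0.122).

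Neutrophil markers rose alongside Ptger2. Of 8 such genes, 7 were called higher with DEX in loaded and 6 in unloaded tibiae, with median log2 fold changes of 1.06 and 1.03. Their summed level was 5900 to 14080 CPM in DEX_Load and 7325 to 12960 CPM in DEX_Ctrl, against 3485 to 5200 CPM in Vehicle_Load and 4099 to 5980 CPM in Vehicle_Ctrl. No gene of that list was at 0. In unloaded tibiae edgeR also called 5 of 9 osteoblast genes lower with DEX (median log2 fold change -1.64), 5 of 7 periosteum and fibroblast genes (-1.35), 3 of 5 osteocyte genes (-0.83), 2 of 5 B cell genes (-1.28) and 1 of 6 endothelial genes (-0.25), and called 1 of 7 osteoclast genes higher (0.63). The part of these lists in the Ptger2 values was not tested.

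**Figure D2:**
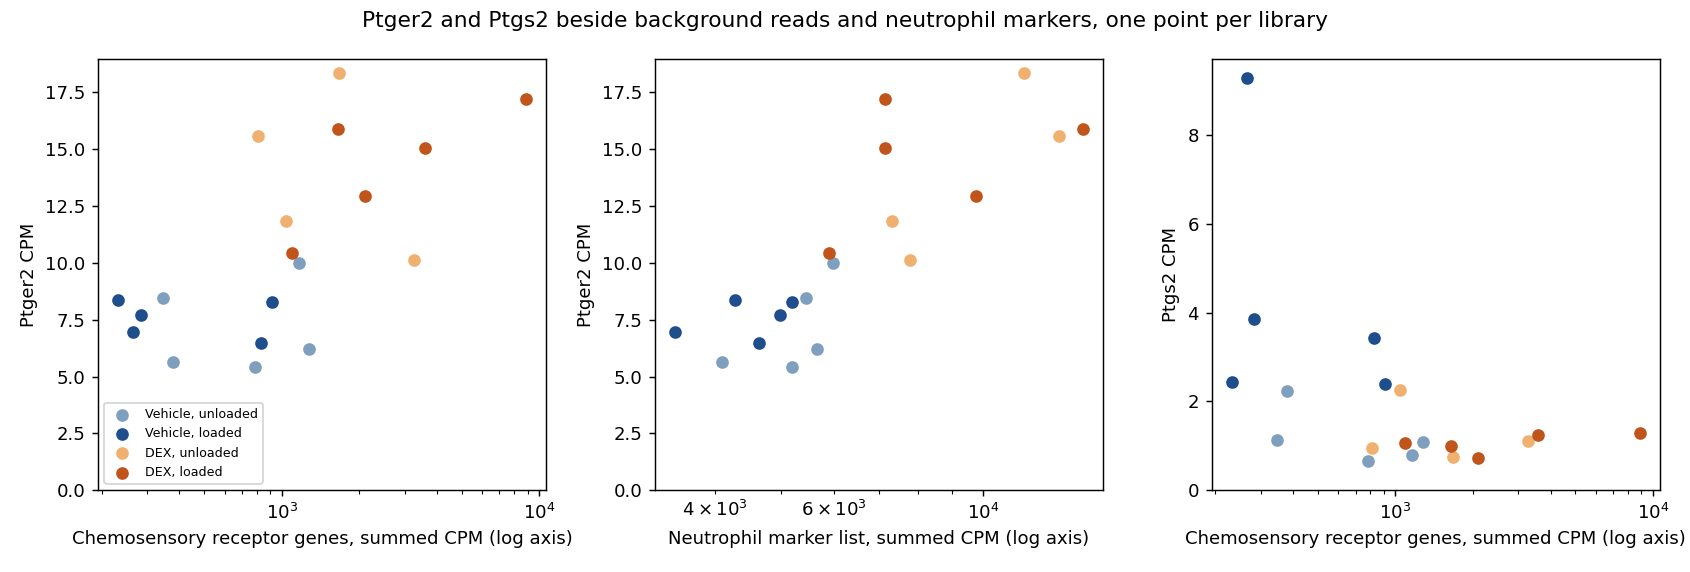
CPM of Ptger2 (left and middle) and Ptgs2 (right) on the y axes, against the summed CPM of olfactory and vomeronasal receptor genes (left, right) or of 8 neutrophil markers (middle) on log x axes, with 1 point per library, coloured by group. Libraries with over 1000 CPM of background reads include all 5 DEX_Load libraries, and the neutrophil sum separates DEX_Ctrl (7325 to 12960 CPM) from both vehicle groups (up to 5980 CPM).

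Reads of Ptger2 may also be shared with its neighbours. The gene (chr14:44988195-45003820, plus strand) lies within the antisense gene Gm17173 (chr14:44972268-45006900) and overlaps the start of Gm49364, both on the minus strand. The library kit keeps strand, but the strand setting of the counting was not given in the sources used here. Gm17173 was also higher with DEX, at 5.79 against 3.15 CPM in loaded tibiae (log2 fold change 0.99, edgeR adjusted p = 0.0240) and 5.83 against 2.53 CPM in unloaded tibiae (1.27, edgeR adjusted p = 0.0233). Gm49364 had log2 fold changes of 1.33 (edgeR adjusted p = 0.0151) and 1.05 (edgeR adjusted p = 0.111) in the same comparisons.

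The EP4 receptor Ptger4, which like EP2 raises cAMP, did not rise with DEX in loaded bone. Its level there was 16.0 ± 1.65 CPM against 17.3 ± 2.98 CPM (SD, n = 5 each), a log2 fold change of 0.00 (0.00105, SE 0.139). In unloaded tibiae it was 16.4 ± 1.11 CPM with DEX (SD, n = 4) and 13.2 ± 2.76 CPM with vehicle (SD, n = 5), with a log2 fold change of 0.38 (SE 0.160, edgeR adjusted p = 0.167). Loading in vehicle gave 0.37 (SE 0.157, unadjusted p = 0.0358), which did not pass over all genes (edgeR adjusted p = 0.485).

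Ptger3, the EP3 receptor, had a higher mean level in both DEX groups without passing the threshold. In loaded tibiae it had 10.1, 7.21, 7.25, 8.32 and 7.34 CPM with DEX, and 9.11, 4.44, 4.39, 5.67 and 4.52 CPM with vehicle. All but Vehicle_Load replicate 1 lay under the DEX range. The log2 fold change was 0.63 (SE 0.242, edgeR adjusted p = 0.0781), and without that library it was 0.83 (adjusted p = 0.0304). In unloaded tibiae it was 0.52 (SE 0.218, edgeR adjusted p = 0.167).

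Ptger1, the EP1 receptor, varied widely between libraries of a group, with 4.61 to 16.7 CPM in Vehicle_Ctrl and 8.02 to 24.9 CPM in DEX_Ctrl. Its log2 fold changes were 0.54 (SE 0.294) for loading in vehicle, -0.17 (SE 0.317) for loading in DEX, 0.59 (SE 0.370) for DEX in unloaded and -0.09 (SE 0.221) for DEX in loaded tibiae, and none passed.

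Ptger2 held a larger mean share of the receptor message with DEX. Per kb of exon, Ptger2 made up 31.0% ± 6.41 (SD, n = 5) of the summed EP receptor level in DEX_Load and 19.01% ± 1.95 (SD, n = 5) in Vehicle_Load. In unloaded tibiae it made up 29.6% ± 1.64 with DEX (SD, n = 4) and 22.6% ± 5.21 with vehicle (SD, n = 5). Ptger4 was at 27.1% ± 1.85 in DEX_Load and 33.8% ± 3.18 in Vehicle_Load (SD, n = 5 each). The shares of a library depend on each other and were given no test of their own.

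**Figure D3:**
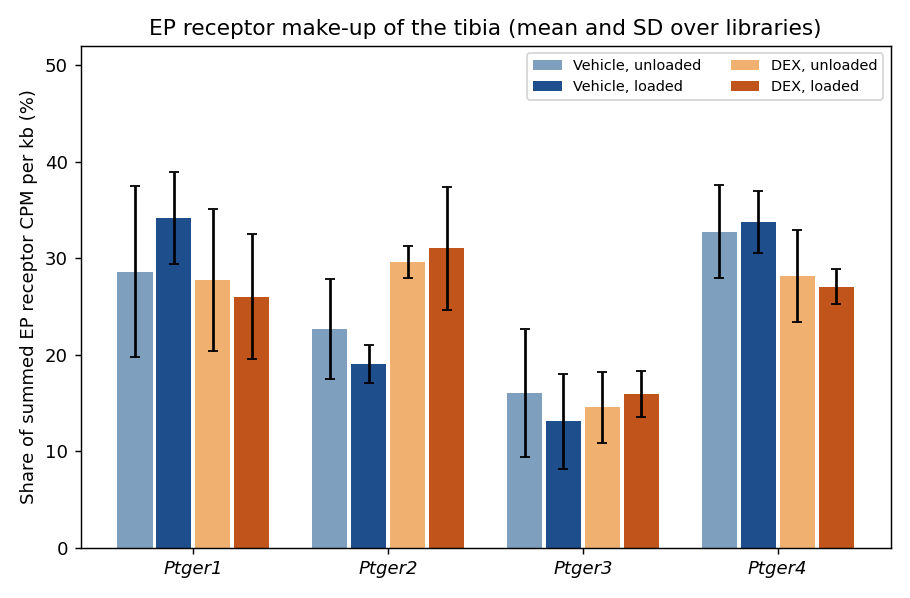
Share of each EP receptor gene in the summed CPM per kb of the 4 receptor genes (y axis, %, from 0), as bars for the mean and lines for the SD over the libraries of a group. Ptger2 had a mean share of 31.0% in DEX_Load and 19.01% in Vehicle_Load.

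Over all comparisons, the members called were few for loading and more for DEX. For loading in vehicle, 0 of the 10 members passed edgeR's adjusted threshold, against 0% of all genes tested. Unadjusted p-values under 0.05 were found for 3 members (Ptgs2, Ptgis and Ptger4), against 9.86% of all genes, and only Ptgs2 had groups that did not overlap, against 1.3%. DESeq2 called 1 member, Ptgs2, and 141 of the 17982 genes. For loading in DEX, edgeR called 0 of 10 (0% of all genes), with 0 at an unadjusted p under 0.05 (4.25% of all genes) and 0 without overlap (1.16%). DESeq2 called 0 members there and 0 of 22541 genes.

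DEX in loaded tibiae gave 3 of 10 called, where 21.3% of all genes were. Of these 1 was higher (12.9% of all genes) and 2 were lower (8.35%). A further member, Ptger3, had an unadjusted p under 0.05, which makes 4 (37.2% of all genes), and 2 did not overlap (17.9%). DEX in unloaded tibiae gave 1 of the 9 tested (6.84% of all genes), which was higher (2.86% of all genes, with 3.99% lower). There 4 members had an unadjusted p under 0.05 (24.6% of all genes) and 1 did not overlap (10.9%). For the interaction edgeR called 0 of 10 (0% of all genes), with 1 at an unadjusted p under 0.05 (12.1%), and DESeq2 called 0 members and 50 of 23653 genes. The shares of members called lay near those of all genes, and nothing particular to the members is read from them. The median log2 fold change of the members was 0.12 for loading in vehicle, -0.11 for loading in DEX, 0.02 for DEX in loaded and 0.46 for DEX in unloaded tibiae, while that of all genes was within 0.04 of 0 in each. For the interaction the median was -0.29 for the members, 9 of 10 of them negative, and 0.07 for all genes. These medians were not tested.

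**Figure D4:**
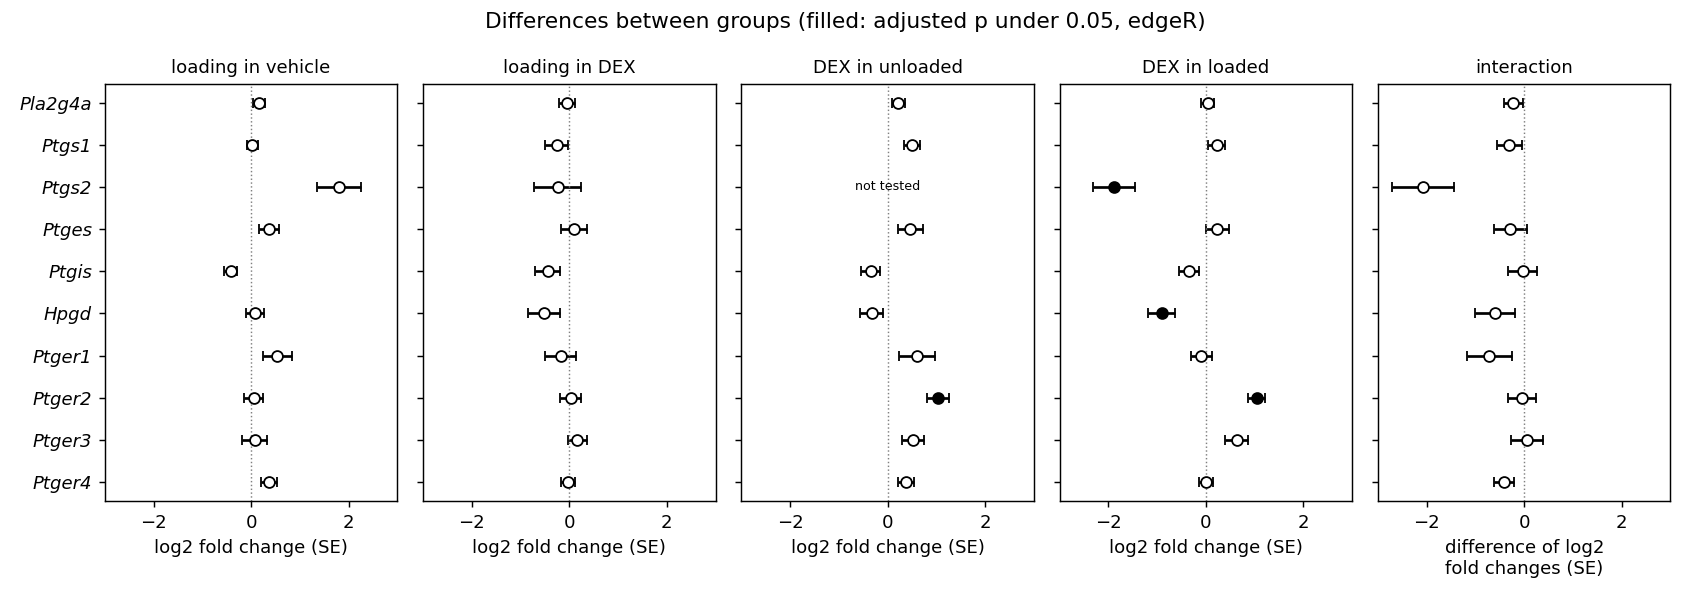
Log2 fold change with its SE (x axes) of the 10 genes (y axis) in 4 comparisons of groups and in the interaction, which is the loading response under DEX minus that under vehicle; filled points had an edgeR adjusted p under 0.05. Filled points are Ptgs2 (-1.89), Hpgd (-0.91) and Ptger2 (1.04) for DEX in loaded tibiae, and Ptger2 (1.03) in unloaded tibiae.

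Genes that went with Ptgs2 and Ptger2 across libraries were named by the highest Spearman correlation of log2 CPM over the 19 libraries. For Ptgs2 they were Hypk (0.858), a chaperone-associated gene, Prag1 (0.856), a pseudokinase gene, and Snai1 (0.828), a transcriptional repressor of epithelial genes. Snai1 had a mean of 12.9 CPM in Vehicle_Load and 5.91 to 7.39 CPM in the other groups. For Ptger2 they were the complement receptor C5ar1 (0.946), the histamine receptor Hrh2 (0.935) and the nuclease gene Dclre1b (0.925). C5ar1 had means of 39.9 and 43.9 CPM in the DEX groups and 16.7 and 18.3 CPM in the vehicle groups. These points share libraries, depth and group structure. Between the members, Ptger2 correlated at -0.690 with Ptgis and -0.672 with Hpgd, and at -0.354 with Ptgs2.

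The wider eicosanoid pathway was covered by 41 further genes, listed with earlier results of these data known. For loading, 0 of the 33 tested in vehicle and 0 of the 35 tested in DEX passed edgeR's threshold, with 3 and 1 at an unadjusted p under 0.05 and 0 called by DESeq2 in either. For DEX, 6 were higher and 2 lower of 35 in loaded tibiae, where 21.3% of all genes were called, and 6 higher and 2 lower of 36 in unloaded tibiae, where 6.84% were. The median log2 fold changes were 0.01 and 0.03.

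Among receptors of this list, the prostacyclin receptor Ptgir was higher with DEX. Its level was 22.9 ± 5.16 against 11.3 ± 2.11 CPM in loaded tibiae (SD, n = 5 each), a log2 fold change of 1.12 (SE 0.177, edgeR adjusted p = 0.00248), and the log2 fold change was 0.71 in unloaded tibiae (adjusted p = 0.0495). The prostaglandin D2 receptors Ptgdr (log2 fold change 2.72, adjusted p = 0.00815) and Ptgdr2 (2.30, adjusted p = 0.0469) were called higher in loaded tibiae, from means of 0.559 and 0.859 CPM with vehicle, and had 0.61 and 1.02 in unloaded tibiae (adjusted p = 0.443 and 0.253). The size for Ptgdr2 rested on DEX_Load replicate 4, the library with the most background reads, without which its log2 fold change was 1.13 (adjusted p = 0.182), and its call was lost in 7 of the 10 fits that left out a library. Ptgfrn, which encodes a membrane protein that binds to the prostaglandin F receptor, was lower, with 37.4 ± 9.60 against 118.8 ± 39.4 CPM in loaded tibiae (SD, n = 5 each; log2 fold change -1.55, SE 0.234, edgeR adjusted p = 0.00201). In unloaded tibiae its log2 fold change was -1.08 (adjusted p = 0.0129).

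Of the list, 4 genes belong to leukotriene synthesis, which draws on the same arachidonic acid, and they did not all go one way. Alox5ap, the activating protein of 5-lipoxygenase, had log2 fold changes of 1.203 in loaded and 1.19 in unloaded tibiae (edgeR adjusted p = 0.00288 and 0.00796). Alox5, the lipoxygenase itself, had 0.74 and 0.96 (adjusted p = 0.0165 and 0.0115). Lta4h, which makes leukotriene B4, passed in unloaded tibiae (0.72, adjusted p = 0.0318) and had 0.54 in loaded tibiae (adjusted p = 0.0602). The leukotriene C4 synthase Ltc4s had a log2 fold change of -0.91 in unloaded tibiae (adjusted p = 0.317), and in loaded tibiae, where it did not pass the filter on low counts, means of 0.589 CPM with DEX and 1.29 CPM with vehicle. Alox5, Alox5ap and Lta4h are known from neutrophils and other myeloid cells. The neutrophil markers were higher with DEX, as given for Ptger2, while 0 of 7 macrophage markers were called higher in either setting, with median log2 fold changes of -0.44 in loaded and -0.0018 in unloaded tibiae. The part of either cell type in these values was not tested.

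Alox15, a lipoxygenase of eosinophils and macrophages, was lower, with log2 fold changes of -1.23 and -0.89 (edgeR adjusted p = 0.0112 and 0.0493). Anxa1, a glucocorticoid-regulated inhibitor of phospholipase A2 activity, was higher, at 0.81 and 0.86 (adjusted p = 0.0175 and 0.0312). The lipoprotein-associated phospholipase Pla2g7 passed in unloaded tibiae (0.58, adjusted p = 0.0493) and had 0.31 in loaded tibiae (adjusted p = 0.158). In unloaded tibiae the calls of Ptgir, Alox15 and Pla2g7 were each lost in 8 of the 9 fits that left out a library, that of Lta4h in 5 and that of Anxa1 in 4.

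Targets of PGE2 and cAMP signalling were followed with 26 genes. With loading, 0 of 24 tested passed in vehicle and 0 of 24 in DEX, with 4 and 2 at an unadjusted p under 0.05 and 0 called by DESeq2 in either. With DEX, 2 were higher and 3 lower in loaded tibiae, and 0 higher and 3 lower in unloaded tibiae, of 24 tested in each and against the same shares of all genes.

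The orphan nuclear receptor Nr4a2, which parathyroid hormone and PGE2 are known to induce in osteoblasts, was lower in both, with log2 fold changes of -1.11 and -1.15 (edgeR adjusted p = 0.00892 and 0.0160). Ccn1, a matricellular protein gene, was likewise lower, at -0.89 and -1.24 (adjusted p = 0.0216 and 0.0190). The phosphodiesterase Pde3b was lower in loaded tibiae (-0.51, adjusted p = 0.0332), a call lost in 4 of the 10 fits that left out a library and with the replicate block (adjusted p = 0.202). Prkaca, the catalytic subunit of protein kinase A, was lower in unloaded tibiae (-0.54, adjusted p = 0.0364), a call lost in 7 of the 9 fits that left out a library. The early response genes Fosb (2.31, adjusted p = 0.0334) and Nr4a1 (0.81, adjusted p = 0.0385) were higher with DEX in loaded tibiae, where Fosb had an SD larger than its mean (16.5 ± 22.01 CPM, SD, n = 5, against 3.73 ± 1.32 CPM, SD, n = 5). Without DEX_Load replicate 4 the log2 fold change was 0.93 for Fosb (adjusted p = 0.0781) and 0.59 for Nr4a1 (adjusted p = 0.0916). The calls were lost in 4 and 7 of the 10 fits that left out a library. With background reads as a covariate, 0 of the 13 calls named here from the pathway and cAMP lists in loaded tibiae passed, and Fosb (-1.14) and Ptgdr2 (-1.09) had the other sign. That fit called 28 of 19780 genes. In unloaded tibiae 10 of the 11 calls named from these lists, all but Alox5ap, were lost without DEX_Ctrl replicate 3, where 129 of 20368 genes were called.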

How the data were processed

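The authors deposited expected counts per gene from RNA-seq of 20 mouse tibiae (SMARTer stranded total RNA libraries). Their processing notes name STAR 2.7.10a, RSEM 1.2.28 and GRCm38. The annotation release and strand setting were not given in the sources used here. Expected counts were rounded to whole numbers. Gene positions and exon lengths came from GENCODE M21 (54409 of 54446 identifiers matched without version), and upstream sequences from RefSeq (GRCm38.p6) for 8 of the 10 members.

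Tests used edgeR 4.0.16 in R 4.3.3: filterByExpr on the groups compared, TMM scaling, the quasi-likelihood F test, and Benjamini-Hochberg adjustment over all genes tested, with a threshold of 0.05. The DESeq2 1.42.0 Wald test, which the study's methods name, was an alternative. SE is the log2 fold change divided by the root of F. CPM used TMM factors over all 20 libraries, and correlations used a prior count of 2.

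Unloaded DEX replicate 4 was left out. One library of each vehicle group has a column number that no label has, so it is called unnumbered. Replicate numbers were not treated as pairs, because no label ties them to a mouse. Only limbs of the same treatment can share a mouse. There the deviations of same-numbered libraries correlated at -0.302 to 0.245 with vehicle, with 1 of 4 pairs over 0.1. With DEX they correlated at 0.0361 to 0.359, with 3 of 4 pairs over 0.1. The tests of loading thus ignore any shared mouse, and fits with the replicate number as a block were run as alternatives. Nothing ties a library to a separate mouse within a group beyond its label, so p-values measure the spread between these libraries. Background reads are CPM over 1965 olfactory and vomeronasal receptor genes. All 10 members, 2 pathway lists and 12 marker lists (mast cell, skeletal muscle and B cell among them) were used, and of the pathway lists each gene with an adjusted p under 0.05 in any comparison was named, at most 10 per list. The members and lists were chosen with earlier results of these data known. One gene that shares a locus with a member is not reported here.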

Additional observations from a re-analysis of the deposited data

Results flagged for a closer look

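Of 40 combinations of member and group, 4 held a library far from the others of its group by Dixon's criterion, which chance alone meets in about 1 of 20. Vehicle_Load replicate 1 was the highest of its group for 3 members, with 9.291 CPM for Ptgs2, 8.92 CPM for Ptges and 9.105 CPM for Ptger3. Vehicle_Load replicate 4 was the lowest of its group for Ptgis, with 44.63 CPM. The causes were not tested.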

How the results depend on the processing

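Counting error is a limit for Ptgs2, with at most 21 counts in each library outside Vehicle_Load. For loading in vehicle, DESeq2 raised the count of members called from 0 to 1 (Ptgs2), and that of all genes from 0 to 141 of 17982. For DEX in loaded tibiae, the background-read covariate lowered the count of members from 3 to 0, where the covariate does not overlap between groups. Over all genes it lowered the calls from 4206 to 28 of 19780. For DEX in unloaded tibiae, with 1 member called, the count of members was 2 with DESeq2 and with all 20 libraries (Ptgs1 added), 3 with the covariate (Ptgs1 and Ptger4 added), and 0 to 2 without each library in turn. It was 0 without DEX_Ctrl replicate 3 or 5 or Vehicle_Ctrl replicate 4 or 5, and 2 without DEX_Ctrl replicate 1. With the replicate block it was 0 (Ptger2 adjusted p = 0.162), as it was in the same libraries without the block (adjusted p = 0.122), and for DEX in loaded tibiae it was 3 with the block and 2 in the same libraries without it (Hpgd adjusted p = 0.0907). In the other comparisons the block changed no count of members called. Calls over all genes moved too. For DEX in unloaded tibiae, with 1351 of 19738 called, they were 2411 with DESeq2, 2922 of 19271 with all 20 libraries and 2592 with the covariate. They were 129 of 20368 without DEX_Ctrl replicate 3, and 520 of 19791 with the block against 566 in those libraries without it. For DEX in loaded tibiae they were 2326 of 19833 with the block and 1120 without it. The deviations of same-numbered libraries had both signs in each comparison except loading in DEX, where they correlated at 0.0361 to 0.359 in the libraries used, which falls short of 0.1 in 1 pair. Leaving out loaded in place of unloaded DEX replicate 4 gave 0 members for loading in DEX and for the interaction. Without the filter on low counts the members' log2 fold changes for DEX in loaded tibiae moved by a median of -0.19. Of the calls named from the pathway and cAMP lists, 13 for DEX in loaded and 11 in unloaded tibiae, 6 and 1 held without each library in turn, 13 and 11 with DESeq2, 7 and 1 with the replicate block (5 and 3 in those libraries without it), and 0 and 8 with the covariate.

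Of 49 member results, 19 took the other sign under some alternative. None of these was called in the fits as designed or under that alternative. With the background-read covariate the log2 fold changes were -0.0193 for Ptgs1 with loading in vehicle; 0.0162 for Ptgs1, -0.137 for Ptges, 0.0649 for Pla2g4a, 0.0347 for Ptger1, -0.0528 for Ptger2 and 0.00645 for Ptger4 with loading in DEX; -0.227 for Ptges and 0.349 for Ptger1 with DEX in loaded tibiae; and 0.0328 for Ptgs1, 0.0522 for Ptgis and -0.0748 for Ptger3 in the interaction. With the replicate block, loading in DEX gave 0.0889 for Ptger1, -0.0241 for Ptger2 and 0.0178 for Ptger4, and DEX in loaded tibiae gave -0.0667 for Pla2g4a. In those libraries without the block, the values were -0.0364 for Ptger2 and 0.0192 for Ptger4 (loading in DEX), -0.0655 for Pla2g4a and -0.0116 for Ptger4 (DEX in loaded), and 0.00651 for Ptgis (interaction). Without the filter they were -0.0717 for Ptger2 (loading in DEX), -0.157 for Pla2g4a and -0.194 for Ptger4 (DEX in loaded), and -0.0174 for Ptger3 (interaction). With all 4 groups in the same model, DEX in loaded tibiae gave -0.0540 for Pla2g4a and -0.0871 for Ptger4. All 20 libraries gave 0.0208 for Ptgis in the interaction. With loaded DEX replicate 4 left out instead, Ptger2 had -0.0425 (loading in DEX) and Ptgis 0.130 (interaction). With the covariate, DEX in loaded tibiae gave -1.137 for Fosb and -1.085 for Ptgdr2. The causes were not tested.

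Leaving out each library in turn gave ranges that crossed 0 for 16 of these. For loading in vehicle they were -0.0156 to 0.102 for Ptgs1, -0.0232 to 0.203 for Hpgd, -0.0163 to 0.227 for Ptger2 and -0.156 to 0.247 for Ptger3. For loading in DEX they were -0.431 to 0.149 for Ptgs2, -0.102 to 0.265 for Ptges, -0.123 to 0.0234 for Pla2g4a, -0.359 to 0.221 for Ptger1, -0.0930 to 0.171 for Ptger2 and -0.0851 to 0.0192 for Ptger4. For DEX in loaded tibiae they were -0.0754 to 0.0841 for Pla2g4a, -0.269 to 0.0356 for Ptger1 and -0.124 to 0.0293 for Ptger4. In the interaction they were -0.217 to 0.0906 for Ptger2, -0.0806 to 0.319 for Ptger3 and -0.214 to 0.0925 for Ptgis.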
